A study of Rattus norvegicus with 21 samples.

Results

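The genes described here lay higher after KLF2 knockdown and lower after KLF2 overexpression in phenylephrine-treated heart muscle cells. There were 108 of them among the 30560 genes counted. They were chosen from the measured levels in CPM, a gene's count divided by the total of its library and multiplied by 1000000. A gene was taken when the ratio of group means, with 1 CPM added to each mean, was 1.5 or more for knockdown over its control and 1/1.5 or less for overexpression over its control, both with phenylephrine. Means of at least 10 CPM were required in the knockdown group and in the overexpression control, both with phenylephrine. Genes whose phenylephrine ratio was 2 or more in both controls, or 0.5 or less in both, were left out, which removed 33 genes that met the other criteria. The folds with phenylephrine are therefore how the genes were found and not a result about them.

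KLF2 is a zinc finger transcription factor that binds GC-rich CACCC elements and can activate or repress genes. It is best known in endothelial cells, where blood flow induces it and where it restrains inflammatory and clotting genes. Phenylephrine (PE) is an agonist of the α1-adrenergic receptor, which signals through Gq, calcium and protein kinases and makes cultured cardiomyocytes grow without dividing. Such growth is called hypertrophy and is a standard culture model of the pressure-loaded heart.

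The cells were NRVMs, ventricular myocytes taken from newborn rats and kept in culture in DMEM medium with an insulin-transferrin-selenium supplement. In the knockdown experiment they received a negative control (siNeg) or a reagent against Klf2 (siKlf2) for 12 h. They then received 100 µM PE for 36 h or no PE, with 2 libraries per group. In the overexpression experiment they received 100 µM PE or none and then an adenovirus for 24 h, with 3 libraries per group. The virus carried green fluorescent protein (Ad-GFP) or Klf2 (Ad-Klf2). PE was given 12 h before the virus, and its time label is 36 h here too. PE thus came after the knockdown but before the virus. The 8 groups were siNeg, siKlf2, siNeg-PE, siKlf2-PE, Ad-GFP, Ad-Klf2, Ad-GFP-PE and Ad-Klf2-PE, where the suffix marks PE. The treatment label names PE on all 20 RNA libraries, and those without PE in their title carry a time of 0 h. Nothing in the labels ties replicates to different animals or cultures, and the p-values cover only library-to-library spread, possibly technical.

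Knockdown libraries held 181101876 to 224082309 counts each and overexpression libraries 32693762 to 76138723. The 3 Ad-GFP libraries without PE stood apart from the rest of their table, in that only 539 to 776 genes had 1 to 5 counts, whereas each of the other 9 had 1728 to 2022 such genes. They are the control of every Ad-Klf2 comparison without PE. They are also the base of the PE ratio in Ad-GFP, which the rule used to leave out genes. Their part in these results was not tested. Leaving each one out of the Ad-Klf2 fit in turn cannot test it, since those that remain stand apart too. No other control without PE exists in that table. Among the 108 genes the median coefficient of variation in that group was 6.97%, against 7.43% for all 8367 genes that met the same 2 level criteria. Genes of the same level means these 8367 throughout. They share only that minimum and were not matched to the 108 genes in level. The tables list genes by Ensembl ID, and 0 of the IDs matched the gene table used here, so no symbols are given. For the same reason neither the level of Klf2 nor the markers of cardiomyocytes and other heart cells were checked. In bulk RNA, fewer cells of a type and less RNA per cell cannot be told apart.

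The 108 genes ranged from scarce to abundant. In siKlf2-PE cells their means ran from 10.1 to 6233 CPM with a median of 164 CPM, and 15 genes reached 1000 CPM. Together they took 2.34% and 2.36% of all counts in the 2 siNeg libraries, 3.79% and 3.75% in siKlf2, 3.19% and 3.17% in siNeg-PE, and 5.89% and 5.78% in siKlf2-PE. In the overexpression table their share was 2.75% to 2.81% in Ad-GFP, 2.36% to 2.42% in Ad-Klf2, 3.87% to 3.89% in Ad-GFP-PE and 1.47% to 1.53% in Ad-Klf2-PE. The libraries of a group lay close together, and no group overlapped another within either table. The 4 PE groups chose the genes, so their order is given by the rule, whereas the siKlf2 and Ad-Klf2 libraries without PE had no part in the choice. The 10 most abundant of the genes held 48.7% to 53.2% of the summed counts in every group except Ad-Klf2-PE, where they held 64.9% to 65.5%.

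**Figure D1:**
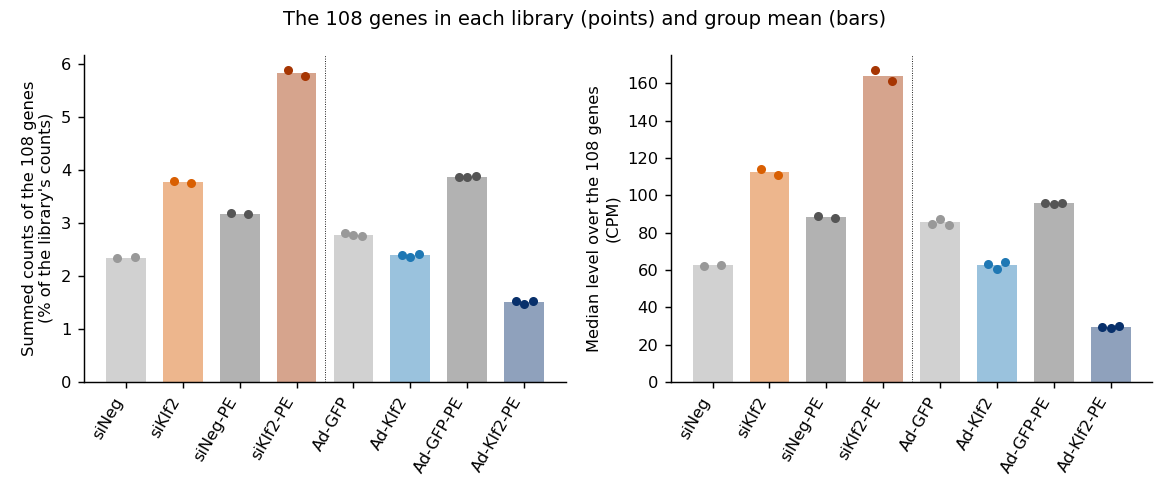
Summed counts of the 108 genes as a percentage of each library's counts (left) and their median level in CPM (right), with a point per library, a bar at the group mean and a dotted line between the 2 tables. The summed share ran from 1.47% in an Ad-Klf2-PE library to 5.89% in a siKlf2-PE library, and the siKlf2 libraries without PE lay above both siNeg-PE libraries.

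Within the rule's own comparisons the spread was wide. The siKlf2-PE over siNeg-PE ratio ran from 1.51 to 5.32 with a median of 1.81, and 30 genes reached 2. The ratio of Ad-Klf2-PE to Ad-GFP-PE ran from 0.0272 to 0.665 with a median of 0.339. There 79 genes were at least 2-fold lower, 33 at least 4-fold and 13 at least 8-fold. Over all 30560 genes, a siKlf2-PE ratio of 1.5 or more was met by 1.16% and an Ad-Klf2-PE ratio of 1/1.5 or less by 11.2%. Among genes of the same minimum level these shares were 3.16% and 27.4%, so the knockdown criterion was the narrower one. The values nearest the knockdown threshold were 1.506 and 1.508 inside and 1.488 and 1.486 outside. Those nearest the overexpression threshold were 0.6647 and 0.6612 inside and 0.6753 and 0.6922 outside. The libraries of the compared PE groups did not overlap for any of the 108 genes in either table. Over all tested genes, Ad-Klf2-PE lay below Ad-GFP-PE without overlap for 41% and siKlf2-PE above siNeg-PE for 14.5%, and among genes of the same level for 53.6% and 19.4%. One gene had siNeg-PE libraries far apart, with 14.5 and 3.46 CPM in siNeg-PE against 22.1 and 19.8 CPM in siKlf2-PE.

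The gene most lowered by Ad-Klf2 under PE is an example of how far the levels went. It stood at 87.4, 91.4 and 93.8 CPM in Ad-GFP-PE and at 1.56, 1.31 and 1.62 CPM in Ad-Klf2-PE. Without PE it stood at 51.7, 44.6 and 44.9 CPM in Ad-GFP and at 16.5, 18.8 and 17.8 CPM in Ad-Klf2. It was thus lower with added Klf2 in both states, and by far the lowest where PE and Ad-Klf2 came together. In the knockdown table it moved less, from 33.7 and 34.2 CPM in siNeg-PE to 63.8 and 59.4 CPM in siKlf2-PE.

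Whether the same genes respond to the Klf2 knockdown reagent in resting cells was asked in siKlf2 against siNeg without PE. Knockdown raised 106 of the 108 genes, lowered 0, and left 2 without a call in edgeR's quasi-likelihood test at an adjusted p under 0.05. All 108 had been tested, and 96 of the 106 rose by a fold of at least 1.5. Over all 18173 genes tested, 27.2% were called higher, 26.8% lower, and 5.83% higher with that fold. Among the 8367 genes of the same minimum level 47.3% were called higher, 24.4% lower, 6.78% higher with that fold and 3.37% lower with it. No estimate among the 108 genes was below 0, so 0 were lower at an unadjusted p under 0.05, and DESeq2 and limma's voom also called 0 lower. The median log2 fold change of the 108 genes was 0.90, a 1.86-fold rise, with quartiles of 0.72 and 1.14 and a range of 0.09 to 2.21. The median over genes of the same minimum level was 0.09. Every siKlf2 library lay above every siNeg library in CPM for 105 of the 108 genes, against 28.8% of genes of the same level and 20% of all tested. Both lay below both siNeg libraries for 2, against 59.6% and 60.2%. These CPM values carry no TMM scaling, which moves the median of all tested genes from -0.22 to -0.02. The rule also used unscaled CPM, and with TMM-scaled CPM it took 219 genes, 101 of the 108 among them. Of these 219, 213 were higher in siKlf2 without PE. The rule used siNeg without PE only to leave out genes that responded to PE in both controls. With those 33 genes put back, 139 of 141 were higher in siKlf2.

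On the rule's own scale the knockdown ratio was larger with PE than without PE for 85 of the 108 genes and smaller for 23, with a median difference of 0.21 on the log2 scale. A larger value with PE is partly built in, since the genes were chosen on it. Across the 108 genes, knockdown fold changes without PE and knockdown ratios with PE had a Spearman correlation of 0.56. The 2 values of a gene share no library, but the genes are not independent of one another and the second value is limited from below by the rule.

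For 80 of the 108 genes both siKlf2 libraries without PE stood above both siNeg-PE libraries, as did those of 34.4% of genes of the same level. The rule favoured low siNeg-PE and high siKlf2-PE levels, so this count and the orders that follow are partly built in and are a description. The order siNeg, siNeg-PE, siKlf2, siKlf2-PE from low to high held for the group means of 63 genes. The order with siKlf2 below siNeg-PE held for 19. The siKlf2-PE group was highest for 96 genes and siKlf2 without PE for the other 12, against 13.2% and 16.9% of genes of the same level.

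The 2 genes without a call were both scarce. One stood at 4.57 and 4.37 CPM in siNeg and at 4.02 and 4.27 CPM in siKlf2, and a log2 fold change of 0.09 with SE 0.0776 (edgeR adjusted p = 0.386). The other is the gene with siNeg-PE libraries far apart, with 8.6 and 9.46 CPM in siNeg and 12.3 and 9.74 CPM in siKlf2. It had a log2 fold change of 0.48 with SE 0.418 (edgeR adjusted p = 0.363).

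**Figure D2:**
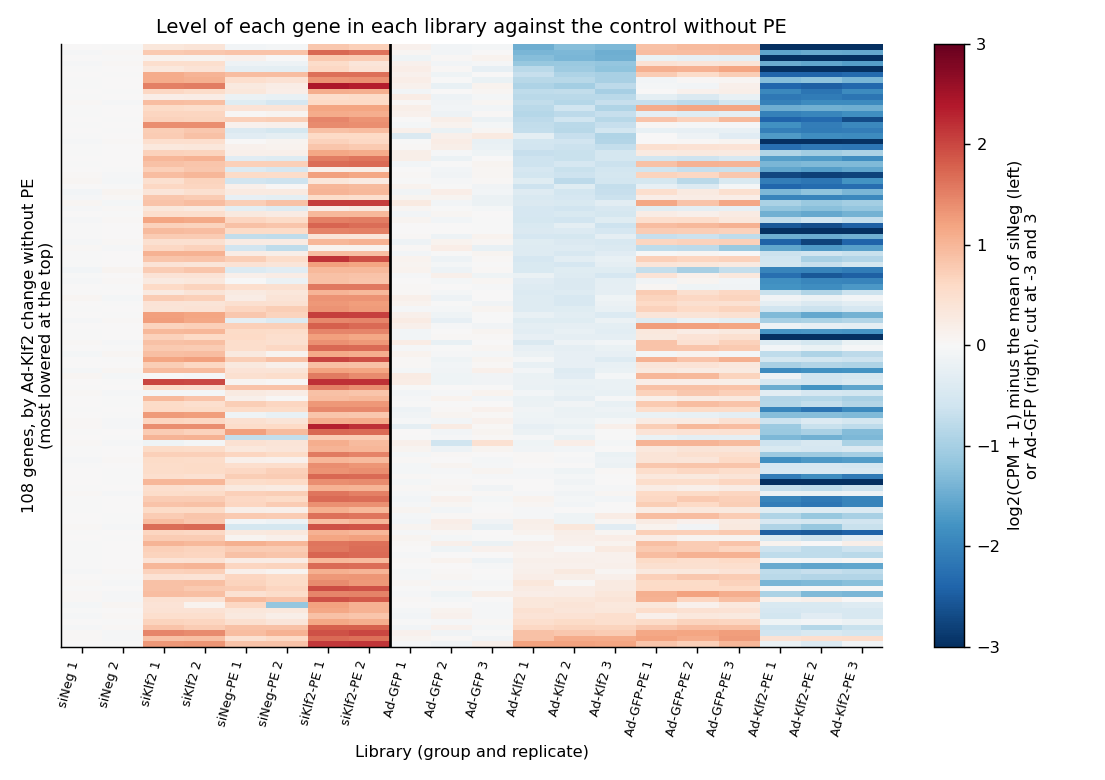
Level of the 108 genes (rows) in the 20 RNA libraries (columns) as log2(CPM + 1) minus the mean of siNeg for knockdown libraries (left of the line) and of Ad-GFP for overexpression libraries (right), with the colour scale cut at -3 and 3. Rows are ordered by the change in Ad-Klf2 without PE. Both siKlf2 groups are raised over nearly all rows, while Ad-Klf2 without PE runs from lowered at the top to raised at the bottom.

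Added Klf2 in resting cells lowered more of the genes than it raised. Only the lowered genes were more frequent than among genes of the same minimum level. In Ad-Klf2 against Ad-GFP without PE, 52 of the 108 genes fell, 17 rose, and 39 were not called in edgeR's quasi-likelihood test at an adjusted p under 0.05. Over all 16153 genes tested, 15.1% were called lower and 20% higher. Among genes of the same minimum level the shares were 21.9% and 23.6%. The members called lower were 48.1% of the list and those called higher 15.7%. The median log2 fold change was -0.21, with quartiles of -0.50 and 0.02 and a range of -1.37 to 1.25, against a median of -0.01 for genes of the same level. By a fold of at least 1.5, 20 of the 108 genes fell (18.5%) and 4 rose (3.7%). Of all tested genes 5.06% fell and 10.7% rose that far, and of genes of the same level 4.61% and 7.1%. All 3 Ad-Klf2 libraries lay below all 3 Ad-GFP libraries for 58 of the 108 genes, against 28.5% of genes of the same level and 21.8% of all tested. They lay above for 17, against 22.9% and 21%. When any 1 of the 6 libraries was left out, 46 to 52 genes were called lower and 15 to 18 higher.

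The knockdown and overexpression responses without PE share no library. Of the 52 genes lowered by Ad-Klf2, all 52 were raised by siKlf2, so 52 of 108 rose under siKlf2 and fell under Ad-Klf2. Among the 15944 genes with both tests 5.68% did so, and 9.96% of genes of the same level. Since siKlf2 raised 106 of the 108 genes, the joint count mostly restates the Ad-Klf2 count and is no separate agreement. A further 16 genes rose under both siKlf2 and Ad-Klf2, against 11.3% of genes of the same level. The size of one response did not follow the size of the other, with a Spearman correlation of 0.07 across the 108 genes.

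**Figure D3:**
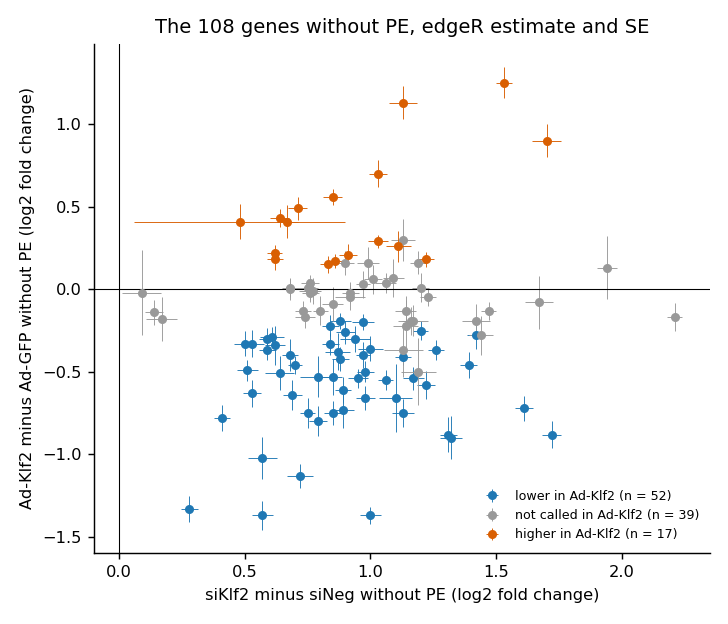
Log2 fold change of siKlf2 against siNeg (horizontal) and of Ad-Klf2 against Ad-GFP (vertical), both without PE, for each of the 108 genes, with edgeR's estimate as a point and its standard error as bars. All points lie to the right of 0, and 52 called lower, 39 not called and 17 called higher in Ad-Klf2 spread from -1.37 to 1.25 on the vertical axis.

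The genes lowered, not called and raised by Ad-Klf2 without PE were much alike in their knockdown response. Their median log2 fold changes in siKlf2 without PE were 0.88, 0.99 and 0.86. Their levels and their ratios with PE are given as description. Median levels in Ad-GFP were 94 CPM for the lowered, 54.8 CPM for the not called and 102 CPM for the raised genes. Median log2 ratios of Ad-Klf2-PE to Ad-GFP-PE, which the rule used, were -1.83, -1.34 and -1.08. The genes were also put in 3 equal groups of 36 by their Ad-GFP level. Ad-Klf2 without PE lowered 12 of the scarcest, 24 of the middle and 16 of the most abundant, and raised 7, 3 and 7. Shares of all genes in these level ranges were not computed, so these counts are a description too.

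For every one of the 108 genes the Ad-Klf2 ratio was lower with PE than without PE, with a median difference of -1.23 on the log2 scale. The rule chose low values with PE, so this direction is partly built in and was not tested. The Ad-Klf2-PE group was the lowest of the 4 overexpression groups for 101 genes, while it was lowest for 53.5% of genes of the same level. For 101 genes its 3 libraries also lay below all 3 Ad-Klf2 libraries without PE, against 53.5% of genes of the same level and 44.1% of all tested. All 3 Ad-Klf2-PE libraries lay below all 3 Ad-GFP libraries without PE for 99 of the 108 genes, against 53.8% of genes of the same level and 42.8% of all tested. The rule required low Ad-Klf2-PE levels, so these 3 counts are a description.

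The PE ratio in each arm is given as a description, since every arm holds libraries that the rule used. In siNeg the median ratio of the 108 genes was 1.31, with 33 genes at 1.5 or more and 4 at 1/1.5 or less. In siKlf2 it was 1.45, with 47 and 1. In Ad-GFP it was 1.37, with 45 and 6. In Ad-Klf2 it was 0.506, with 0 and 77, and 53 genes were at 0.5 or less. Among genes of the same level, 4.1%, 3.62%, 4.74% and 14.3% reached 1.5 in these arms, in the same order, and 4.84%, 6.66%, 5.96% and 26.6% were at 1/1.5 or less. Most of the genes thus stood mildly higher with PE in the 3 arms without added Klf2 and lower with PE where Klf2 was added. The rule had trimmed the strongest PE ratios shared by siNeg and Ad-GFP, but it set no limit on the PE ratio in siKlf2, where 10 genes reached 2 and the highest ratio was 2.84. Only 4 of the 108 had a PE ratio above 1 in Ad-Klf2, and the highest was 1.14. The PE ratios of siNeg and Ad-GFP, which share no library, had a Spearman correlation of 0.75 across the 108 genes and of 0.78 across the 8367 genes of the same level.

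**Figure D4:**
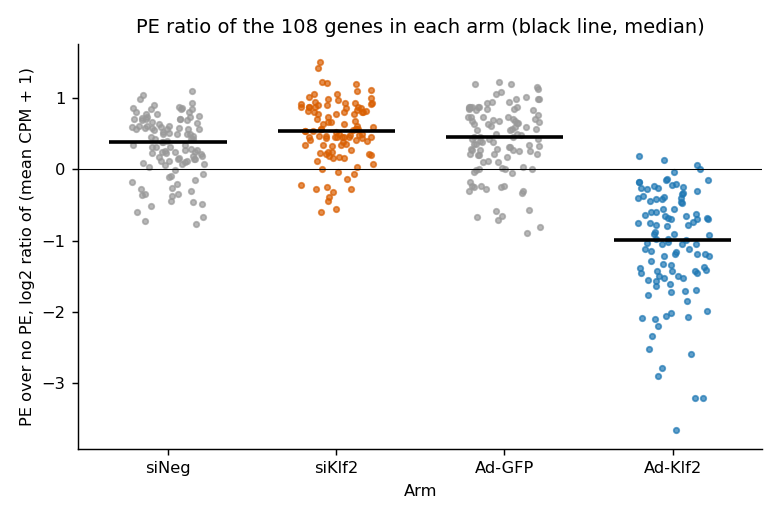
Log2 ratio of (mean CPM + 1) with PE over without PE for each of the 108 genes (points) in the siNeg, siKlf2, Ad-GFP and Ad-Klf2 arms, with the median as a black line. The medians are 0.39, 0.54, 0.45 and -0.98, and the Ad-Klf2 points reach down to -3.66.

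A set of 4 IDs was followed through all libraries, chosen after their values were seen. ENSRNOG00000015036 had the largest value of the smaller of the 2 rule ratios. It stood at 259 and 267 CPM in siNeg, 749 and 764 CPM in siKlf2, 321 and 305 CPM in siNeg-PE, and 1408 and 1349 CPM in siKlf2-PE. It was highest in siKlf2-PE, and siNeg-PE lay close to siNeg. Without PE siKlf2 raised it by 1.72 on the log2 scale with SE 0.0368 (edgeR adjusted p = 5.88e-11). In the overexpression table ENSRNOG00000015036 stood at 554, 434 and 543 CPM in Ad-GFP and at 266, 250.2 and 293 CPM in Ad-Klf2. The groups did not overlap, and the log2 fold change, -0.88 with SE 0.0837, passed the test (edgeR adjusted p = 1.01e-07). With PE it stood at 491, 479 and 566 CPM in Ad-GFP-PE and at 96.1, 92.5 and 97.7 CPM in Ad-Klf2-PE, a ratio of 0.188.

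ENSRNOG00000001825 was chosen among the genes raised by siKlf2 and lowered by Ad-Klf2 without PE, as the one whose smaller change of the 2 was largest. It stood at 171 and 182 CPM in siNeg, 306 and 309 CPM in siKlf2, 319.9 and 318 CPM in siNeg-PE, and 584 and 549 CPM in siKlf2-PE. Its levels in siKlf2 and in siNeg-PE were alike, and the PE ratio was 1.8 in siNeg and 1.84 in siKlf2. Without PE siKlf2 raised it by 1.00 on the log2 scale with SE 0.0398 (edgeR adjusted p = 5.08e-09). In Ad-GFP it stood at 245, 225 and 240.1 CPM and in Ad-Klf2 at 90.3, 91.7 and 85.7 CPM, which is -1.37 on the log2 scale with SE 0.051 (edgeR adjusted p = 2.5e-13). With PE the values were 452, 453 and 461 CPM in Ad-GFP-PE against 78.5, 81.8 and 80.9 CPM in Ad-Klf2-PE. The PE ratio of ENSRNOG00000001825 was 1.92 in Ad-GFP and 0.902 in Ad-Klf2.

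ENSRNOG00000003300 had the largest rise in Ad-Klf2 without PE, where only 2 of the 108 genes were called higher with a fold of at least 2. In the knockdown table it stood at 49.1 and 48.1 CPM in siNeg, 122 and 123 CPM in siKlf2, 89.3 and 89 CPM in siNeg-PE, and 214 and 219 CPM in siKlf2-PE. The siKlf2 rise without PE was 1.53 on the log2 scale with SE 0.0319 (edgeR adjusted p = 5.21e-11). In Ad-GFP it stood at 39.8, 37.7 and 45 CPM and in Ad-Klf2 at 95.9, 95 and 93.7 CPM. Both siKlf2 and Ad-Klf2 thus raised it in resting cells. The Ad-Klf2 rise was 1.25 on the log2 scale with SE 0.0948 (edgeR adjusted p = 4.33e-09). With PE it stood at 73.2, 67.2 and 81.9 CPM in Ad-GFP-PE and at 35.4, 30.2 and 38.1 CPM in Ad-Klf2-PE. The order of the virus groups was the opposite of that without PE, with no overlap in either state. The rule required the lower level with PE, and the gene was picked for its rise without PE. This turn was therefore built into the choice.

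ENSRNOG00000018646 had the next largest rise in Ad-Klf2 without PE and the same pattern at a lower level. It stood at 16.2 and 15.4 CPM in siNeg, 30.1 and 30.5 CPM in siKlf2, 22.2 and 24.3 CPM in siNeg-PE, and 53.3 and 51.8 CPM in siKlf2-PE. The siKlf2 rise without PE was 1.13 on the log2 scale with SE 0.0546 (edgeR adjusted p = 2.02e-08). In Ad-GFP it stood at 13.3, 12.7 and 11.5 CPM and in Ad-Klf2 at 23.8, 28.3 and 28 CPM, a rise of 1.13 on the log2 scale with SE 0.1 (edgeR adjusted p = 3.91e-08). With PE the values were 30.3, 28 and 31.6 CPM in Ad-GFP-PE and 17.1, 18.2 and 18.5 CPM in Ad-Klf2-PE. The direction turned between the states for ENSRNOG00000018646 as well, which was again built in, since it was picked in the same way.

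**Figure D5:**
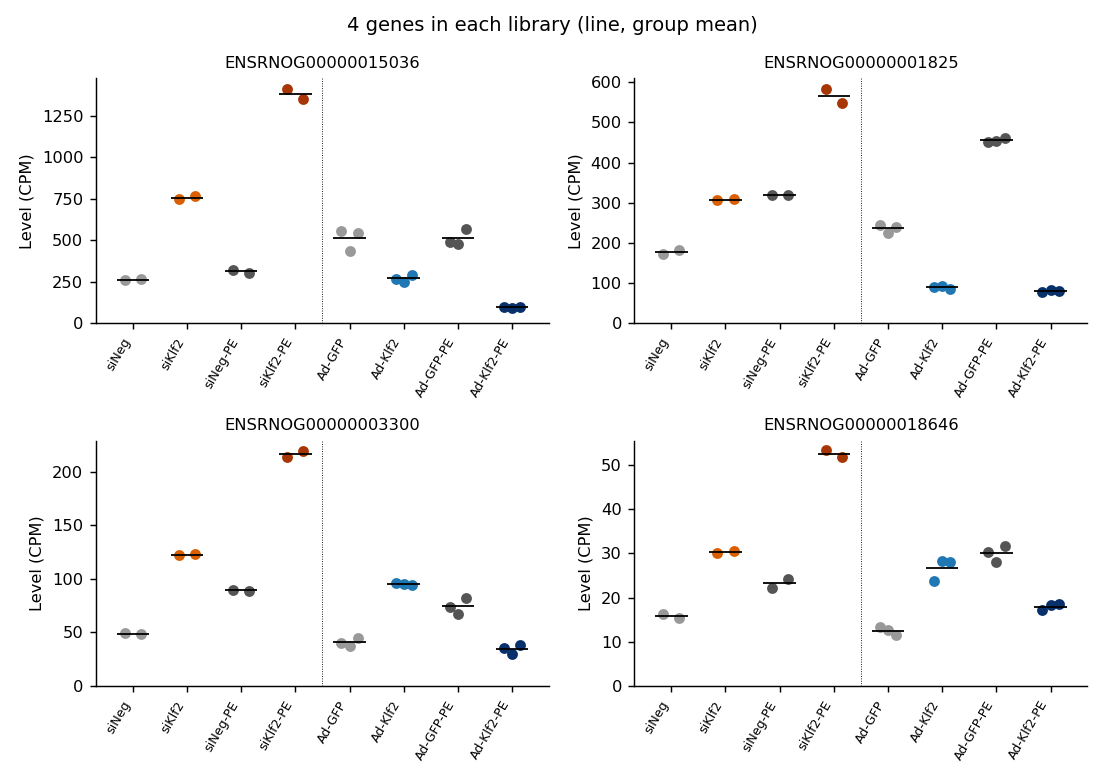
Level in CPM of the 4 followed IDs in each library (points) and group mean (line), for the knockdown groups (left of the dotted line) and overexpression groups (right). In Ad-Klf2 without PE the upper 2 genes lie below Ad-GFP and the lower 2, picked for their rise, above it. In Ad-Klf2-PE all 4 lie below Ad-GFP-PE, as the rule required.

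Both neighbouring sets of genes were counted in the same way. The 33 genes left out for their PE response had a median log2 fold change of 1.54 in siKlf2 without PE, and all 33 were called higher. Of them, 12 were lower and 11 higher in Ad-Klf2 without PE. Of the 8367 genes that met the same level criteria, 47.3% were higher in siKlf2, and 21.9% were lower and 23.6% higher in Ad-Klf2. The mirror rule, with the folds reversed and 10 CPM required in siNeg-PE and Ad-Klf2-PE, gave 284 genes that were lower after knockdown and higher with Ad-Klf2 under PE. Without PE, siKlf2 lowered 264 of these 284 (93%) and raised 5, with a median log2 fold change of -0.48. It lowered 24.4% and raised 47.3% of the 8367 genes. Shares under the mirror rule's own level criteria were not computed. Ad-Klf2 without PE raised 176 of the 284 (62%) and lowered 20, against 23.6% and 21.9% of the 8367 genes. The median log2 fold change of the mirror set in Ad-Klf2 without PE was 0.38. The sets were not compared by a test, and their rules were not equally easy to meet in unscaled CPM. Among the 8367 genes the median log2 ratio of siKlf2-PE to siNeg-PE was -0.2, with 823 genes at 1/1.5 or less and 264 at 1.5 or more. The Ad-Klf2-PE ratio was 1.5 or more for 1569 and 1/1.5 or less for 2289. Set sizes and median changes are therefore not on a like scale.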

How the data were processed

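RNA sequencing counts of 20 libraries were used, in 2 tables of 4 groups each. The deposited values are raw counts per Ensembl gene ID, per the file headers. Per the submitters' processing notes, the authors' tools were Trim Galore, STAR and featureCounts, whose versions are not given in the sources used here, with genome mRatBN7.2. Of counts from 1 to 20, 59.8% to 66.6% were even in knockdown libraries and 72.1% to 82.2% in overexpression libraries, and a count may not be an independent fragment.

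The rule was applied to CPM by library total. Tests used edgeR 4.0.16 in R 4.3.3, with filterByExpr (minimum count 10, minimum total 15), TMM scaling, 1 quasi-likelihood fit over the 4 groups of a table, two-sided p-values and Benjamini-Hochberg adjustment over all tested genes. Printed CPM values are not TMM-scaled, whereas fold changes with an SE are. The procedure was also run on simulated counts, drawn independently of one another. These do not carry the high share of even counts, so they cannot show its effect on the calls. Alternatives were DESeq2 1.42.0, RLE size factors, library totals, a replicate block, no filter, fits of the 2 compared groups, a fold minimum, leaving out libraries and other settings of the rule. Voom weights (limma 3.58.1) and halved counts were added after seeing the data. Python 3.11.15, numpy 2.4.6, pandas 2.3.3, scipy 1.17.1 and matplotlib 3.10.9 were used for tables and figures.

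The members, lists and tests were chosen with earlier results of these data known. The rule for named genes takes members with a symbol, by rule ratio, by level, by change without PE, by listed function, by distance to a threshold and by a peak. With 0 IDs matched it named none, so 4 IDs were followed instead. Gene lists, promoter motifs, sequences and the KLF2 CUT&Tag peaks near members were not analysed here.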

Additional observations from a re-analysis of the deposited data

Results flagged for a closer look

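For 17 of the 108 genes every Ad-Klf2 library lay above every Ad-GFP library without PE and below every Ad-GFP-PE library with PE. All 108 genes lay below with PE, so the 17 are those above without PE. They were 15.7% of the list, against 22.9% of genes of the same level and 21% of all tested. Of the 17 genes, 16 were called higher without PE, by 0.15 to 1.25 on the log2 scale in edgeR. Their log2 ratios with PE were -3.21 to -0.59. ENSRNOG00000003300 rose by 1.25 and ENSRNOG00000018646 by 1.13 on the log2 scale without PE. The values with PE chose the genes, so the difference between the states was not tested.

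For 2 of the 108 genes both siKlf2 libraries lay below both siNeg libraries in CPM without PE and above them with PE. The position without PE was held by 59.6% of genes of the same level and 60.2% of all tested. With TMM scaling the 2 genes had log2 fold changes of 0.14 and 0.09 without PE (edgeR adjusted p = 0.00666 and 0.386). With library totals these were -0.06 and -0.11 (edgeR adjusted p = 0.248 and 0.265). Their direction without PE thus depends on the scaling, and the difference between the states was not tested.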

How the results depend on the processing

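With the 108 genes kept, siKlf2 without PE raised 96 to 107 under the settings of the fit, and 104 to 106 when 1 library was left out of the fit, with 0 lowered in each. With library totals in place of TMM factors it was 103, while the median of all tested genes went from -0.02 to -0.22 and that of the members from 0.90 to 0.70. Over all genes, that scaling called 2288 higher and 8166 lower, rather than 4934 and 4868. In Ad-Klf2 without PE, 46 to 58 members were lower and 13 to 19 higher without a fold minimum. A fold of at least 1.5 left 20 lower and 4 higher, fewer by construction, and over all genes 1728 higher and 818 lower, and 1059 and 2093 in siKlf2. Voom weights gave 51 lower and 16 higher. The 4 followed IDs kept direction and call in every fit run.

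Replicate numbers did not pair libraries (correlations of deviations from -0.0432 to 0.0403 and from -0.0203 to 0.0446), and the replicate block gave 106 higher in siKlf2, and 52 lower and 17 higher in Ad-Klf2.

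The rule itself depends on scaling. With TMM-scaled CPM it took 219 genes, 101 of them among the 108, and a fold of 2 took 19. Of the 219, siKlf2 without PE raised 213 and lowered 1, and Ad-Klf2 lowered 123. Of the 19, siKlf2 raised 19. Other settings of the rule took 100 to 141 genes, and 104 to 111 without 1 library. Under these siKlf2 raised 96.4% to 100.0% of the genes taken, and lowered 1 with 0.1 CPM added, without siNeg-PE replicate 1 and without siKlf2-PE replicate 2, and 0 otherwise. Peak distances were not run.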
